A study of Mus musculus with 6 samples.

Results

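AP-1 and EGR transcription factors were followed across 6 Affymetrix arrays of sorted mouse bone marrow B cells. The genes were Fos, Fosb, Fosl2, Jun, Junb, Jund and Batf of the AP-1 family and Egr1, Egr2 and Egr3 of the EGR family. Every probe set whose single gene symbol was one of these was taken, a probe set being the group of short array probes that reports on a transcript. This gave 15 probe sets of 10 genes, out of 34945 single-gene probe sets of 18193 genes. All cells came from untreated C57BL/6 mice of both sexes, aged 8 to 12 weeks. Cells positive for Gr1, DX5, CD11b, Ter119 or CD3 had been removed from the marrow, and cells with Igκ or Igλ light chain on their surface were sorted. There were 3 groups of 2 arrays: Igκ+ cells labelled mb-1/TAK1f/f, called TAK1-deficient here, and Igκ+ and Igλ+ cells labelled mb-1/TAK1+/+, called wild-type here. The mb-1 designation, an old name of Cd79a, is shared by all groups. What it drives, in which cells, and how much TAK1 remained are not given in the labels, while the series title speaks of TAK1-/-. No label ties a replicate to an animal of its own, so the p-values cover the spread between these arrays, which may be technical.

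AP-1 is a dimer of basic leucine zipper proteins, usually of a FOS protein with a JUN protein, that binds DNA and switches genes on or off. BATF takes the place of FOS in such dimers and binds composite sites together with IRF4 or IRF8 in lymphocytes. EGR proteins are zinc finger factors that, like FOS, are made within minutes of antigen receptor signalling. TAK1, encoded by Map3k7, is a kinase upstream of NF-κB and of the JNK and p38 MAP kinases, and these MAP kinases act on AP-1 proteins and on the factors that induce Fos and Egr genes.

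The 250 bases before the start of Fos, Fosl2, Junb and Batf are shown because these genes carry the differences described for the FOS, JUN and BATF branches. They are read 5′ to 3′ on the gene's strand from RefSeq's annotation of GRCm38.p6. The windows are chr12:85473640-85473889 on the plus strand for Fos, chr5:32136222-32136471 on the plus strand for Fosl2, chr8:84978749-84978998 on the minus strand for Junb and chr12:85686470-85686719 on the plus strand for Batf. Capitals mark TGACG, the core of the cAMP response element, or GCGNGGGCG, the EGR recognition sequence.
Fos: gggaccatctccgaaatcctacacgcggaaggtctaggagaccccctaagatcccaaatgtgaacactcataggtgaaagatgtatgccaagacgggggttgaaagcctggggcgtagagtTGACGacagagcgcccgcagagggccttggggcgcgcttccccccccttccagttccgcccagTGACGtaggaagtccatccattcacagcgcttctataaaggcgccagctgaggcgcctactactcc
Fosl2: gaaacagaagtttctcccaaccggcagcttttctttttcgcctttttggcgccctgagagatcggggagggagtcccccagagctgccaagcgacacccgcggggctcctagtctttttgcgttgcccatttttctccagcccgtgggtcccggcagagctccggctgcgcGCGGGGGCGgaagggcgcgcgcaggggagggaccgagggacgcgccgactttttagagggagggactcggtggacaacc
Junb: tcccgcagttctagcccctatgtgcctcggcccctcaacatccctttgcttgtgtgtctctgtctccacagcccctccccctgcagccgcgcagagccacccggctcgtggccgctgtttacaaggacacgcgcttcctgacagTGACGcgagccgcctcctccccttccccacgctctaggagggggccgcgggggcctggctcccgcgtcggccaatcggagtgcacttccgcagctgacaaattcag
Batf: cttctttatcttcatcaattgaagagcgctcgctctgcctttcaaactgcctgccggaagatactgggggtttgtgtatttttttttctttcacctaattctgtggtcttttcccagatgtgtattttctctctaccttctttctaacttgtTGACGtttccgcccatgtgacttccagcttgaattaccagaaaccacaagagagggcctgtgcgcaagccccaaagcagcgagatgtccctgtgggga

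The Fos window held TGACG at 129 to 125 and at 66 to 62 bases before the start, Junb at 106 to 102 and Batf at 98 to 94. The Fosl2 window held the EGR sequence at 79 to 71 bases before the start. For 8 of the 10 genes, 12 windows were searched on both strands, and TGACG was found for 5 of them, Fos, Fosb, Junb, Batf and Egr2, against 17.8% of 32841 promoter windows of the same length. The full element TGACGTCA, which contains TGACG, and the AP-1 site TGANTCA were found for 0 of the 8, against 1.55% and 6.75% of all windows. GCGNGGGCG stood before Fosb and Fosl2, against 4.7% of all windows, and a CArG box, the sequence bound by SRF, before Egr2, against 1.47%. A match of letters describes the window and does not show a bound site. Egr1 and Egr3 were not analysed here in this respect.

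The TAK1-deficient arrays stood apart from the other 4, which bears on every value that follows. Signals are linear intensities, scaled by a single factor per array. Hybridization controls spiked in fixed amounts had geometric mean signals of 47043 and 41197 on the TAK1-deficient arrays, compared with 3985 to 4608 on the other 4. Control probe sets without a spiked target, whose 95th percentile is called the control level here, reached 77.7 and 75.7 against 10.3 to 17.4. The Actb signal at the 3′ end over that at the 5′ end, which rises as RNA is degraded or copied incompletely, was 6.28 and 4.18 against 1.25 to 1.58. Pearson's r of log2 signals over all probe sets was 0.432 to 0.51 between the genotypes, 0.962 to 0.984 among wild-type arrays and 0.919 for the TAK1-deficient pair. Map3k7 had signals of 346 and 599 on the TAK1-deficient arrays, compared with 1805 to 2196 on the others, a log2 difference from wild-type Igκ+ cells of -2.09 ± 0.27 (SE; limma, adjusted p = 0.000184). All 9 B cell markers measured were above the control level on every array. Their summed signal was 71324 and 80388 on the TAK1-deficient arrays, compared with 55426 to 59529 on the others. The markers went both ways, with 4 called higher and 3 lower and a median log2 difference of 0.015. Of all genes tested 26.1% were called higher and 49.8% lower, with a median of -0.70. With the level adjustment described below, 5 markers were higher and 1 lower, against 24.7% and 18% of all genes. Their median was then 0.82, against 0.03 for all genes.

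The first comparison set TAK1-deficient against wild-type Igκ+ cells and asked how the factors differed with the genotype. On the deposited scale Fosl2 and Jund were higher in TAK1-deficient cells, Batf, Junb, Egr3 and Fos were lower, and Fosb, Jun, Egr1 and Egr2 did not pass the test. Under the other scalings tried, Batf, Junb and Egr3 stayed lower and Fosl2 stayed higher, Egr3 and Fosl2 each losing the call under 1 of them. A dimmer Egr3 probe set, which was not tested, went the other way as deposited. Log2 differences were taken from log2(signal + 16), the brightest probe set stood for each gene, and limma's moderated test was adjusted by Benjamini-Hochberg over 11696 genes at a threshold of 0.05. Of the 10 genes 6 passed, 2 higher and 4 lower, while 75.9% of all genes tested passed, 26.1% higher and 49.8% lower. At an unadjusted p under 0.05 the counts were 7 of 10 and 77.9%. Signals of 7 of the 10 did not overlap between the Igκ+ groups, against 89.6% of all genes, and signals of 7 did not overlap between the TAK1-deficient and all 4 wild-type arrays, against 84.4%. The members' counts thus did not exceed the background, and their median log2 difference of -0.51 lay near that of all genes, -0.70.

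All 10 genes had passed the filter on low signals, which kept genes whose mean exceeded the 40th percentile over probe sets. Fosl2 got through because of its TAK1-deficient signals alone, and Junb and Batf only through the wild-type arrays, so these 3 had to differ between the genotypes, and their steady direction is no independent support. Scaling mattered for most other members, since it moved the median of all genes from -0.70 as deposited to -1.02 with quantile normalization, -3.27 with median centring and -3.94 when arrays were scaled on the spiked controls. Differences also ran with the level of a gene. Among genes split into 10 equal classes by wild-type level, the median log2 difference fell from 4.79 in the dimmest class to -1.54 in class 9. The dimmest class, with wild-type levels up to 5.66 on the log2 scale, lay wholly under the filter. Its genes were kept only through their TAK1-deficient signals, so they had to be higher there. Classes 3 and 4, with levels from 6.77 and from 7.98 up, lay above the filter, and their medians were 0.755 and -0.27. A level adjustment, a smooth curve of each TAK1-deficient array against the mean wild-type level that was then subtracted, brought the median of all genes to 0.03. With it Map3k7 stood at -0.62 and no longer passed (limma, adjusted p = 0.0791).

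**Figure D1:**
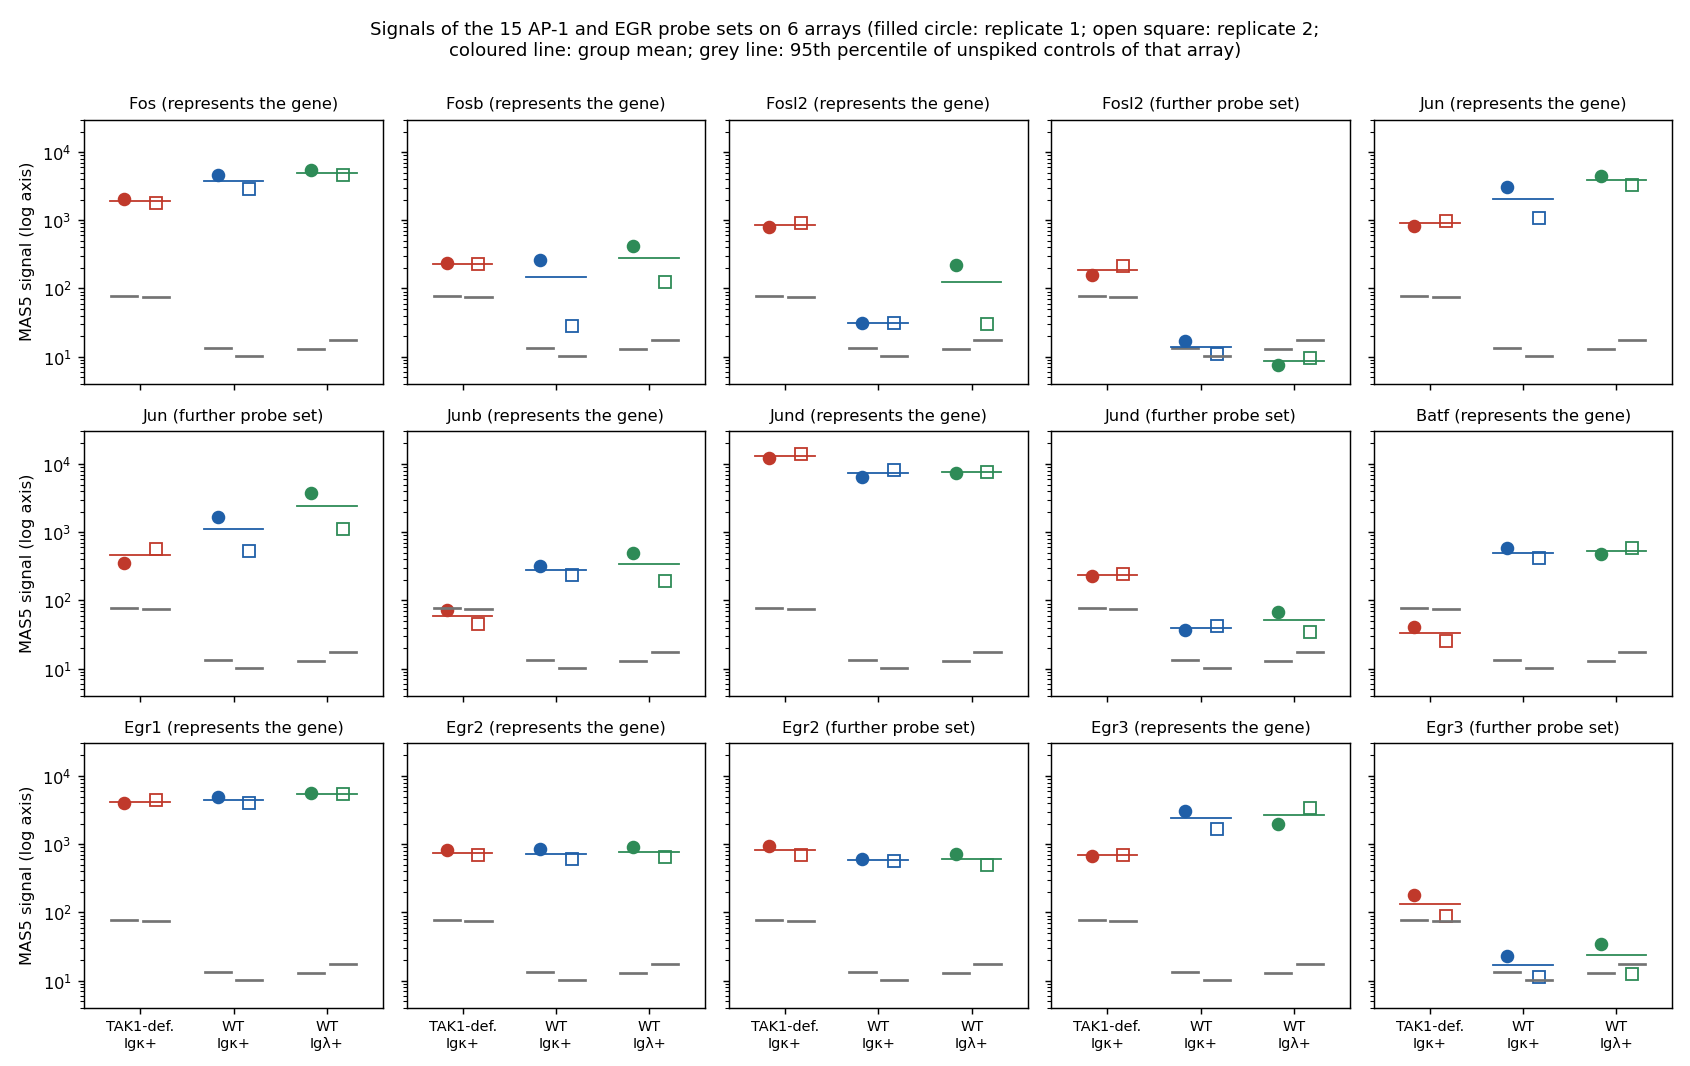
Signals of the 15 probe sets of the 10 genes on the 6 arrays, on a log axis of linear intensity, with a point per array (filled for replicate 1, open for replicate 2), a coloured line at each group's mean and a grey line at each array's control level. Batf and Junb lie under the grey lines on both TAK1-deficient arrays, and the brighter Fosl2 probe set, at 803 and 906 there, lies above its signals on all 4 wild-type arrays.

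Fos encodes the founding member of the FOS proteins. It had signals of 2078 and 1793 on the TAK1-deficient arrays (replicate 1 first, here and below), 4676 and 2898 on the wild-type Igκ+ arrays and 5471 and 4537 on the wild-type Igλ+ arrays. Both TAK1-deficient signals lay below all 4 wild-type signals. Fos fell by 0.93 ± 0.23 (SE) on the log2 scale against wild-type Igκ+ cells (limma, adjusted p = 0.00648). With the level adjustment the difference turned to 0.38 (adjusted p = 0.229), and with quantile normalization it was -0.15 (adjusted p = 0.618).

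Fosb, a close relative of Fos, varied strongly between wild-type replicates. Its signals were 234 and 228 on the TAK1-deficient, 263 and 28.5 on the wild-type Igκ+ and 424 and 126 on the Igλ+ arrays. The TAK1-deficient signals lay inside the wild-type Igκ+ range. The log2 difference of 1.15 ± 0.83 did not pass (limma, adjusted p = 0.237). It was 0.14 with the level adjustment (adjusted p = 0.909), and it became 2.47 without wild-type Igκ+ replicate 1 (adjusted p = 0.0182) and -0.18 without replicate 2.

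Fosl2 encodes FRA-2, a FOS protein that lacks the strong activation domain of FOS. Its brighter probe set read 803 and 906 on the TAK1-deficient arrays, 31.2 and 30.8 on the wild-type Igκ+ arrays and 221 and 29.9 on the wild-type Igλ+ arrays. All 4 wild-type signals were lower than both TAK1-deficient signals, and wild-type Igλ+ replicate 1 stood above the other 3 wild-type arrays. Fosl2 rose by 4.21 ± 0.67 on the log2 scale (limma, adjusted p = 0.000534), 18.5-fold on the log2(signal + 16) scale, and by 2.12 with the level adjustment (adjusted p = 0.0337). Scaled on the spiked controls the difference was 1.15 and no longer passed (adjusted p = 0.139).

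The second Fosl2 probe set was also higher on the TAK1-deficient arrays, at lower signals. It did not share the rise of the brighter one on wild-type Igλ+ replicate 1. It read 159 and 211 on the TAK1-deficient, 17.04 and 11.1 on the wild-type Igκ+ and 7.64 and 9.68 on the wild-type Igλ+ arrays. Both wild-type Igλ+ arrays were at or under the control level for it, which puts the TAK1-deficient signals at least 12.1-fold higher as deposited. The control levels were themselves 77.7 and 75.7 on the TAK1-deficient arrays against 13.1 and 17.4 on the Igλ+ arrays. Spiked controls stood at 47043 and 41197 against 4608 and 4474. This bound, like those given below for Junb, Batf and Dusp4, therefore describes the signals and does not carry over to the cells. Here and below, "at least" sets the geometric mean of the brighter group's signals, without the added 16, against that of the dimmer group, each of whose signals is raised to the control level of its array where it lies below. This probe set did not reach the filter on low signals and was not tested.

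Jun encodes the main JUN partner of FOS and a substrate of JNK. Signals of its brighter probe set were 828 and 977 on the TAK1-deficient, 3098 and 1065 on the wild-type Igκ+ and 4470 and 3245 on the Igλ+ arrays. The groups did not overlap, but the TAK1-deficient signal of 977 and the wild-type Igκ+ signal of 1065 lay close. The log2 difference of -1.004 ± 0.43 did not pass (limma, adjusted p = 0.0611). Without wild-type Igκ+ replicate 2 it was -1.77 and passed (adjusted p = 0.00168), and without replicate 1 it was -0.24 (adjusted p = 0.463). The level adjustment turned it to 0.48 (adjusted p = 0.383), whereas it passed with median centring, at -3.66 (adjusted p = 3.32e-06), and on the spiked controls, at -4.37 (adjusted p = 3.43e-06), where the median of all genes was -3.27 and -3.94. The second Jun probe set read 354 and 562 on the TAK1-deficient, 1699.5 and 532 on the wild-type Igκ+ and 3778 and 1099.8 on the wild-type Igλ+ arrays, with overlap of the Igκ+ groups.

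Junb encodes a JUN protein that often opposes JUN. It had signals of 72.0 and 45.8 on the TAK1-deficient arrays, 317 and 239.7 on the wild-type Igκ+ arrays and 488 and 190.0 on the wild-type Igλ+ arrays. Both TAK1-deficient signals were under the control level of their arrays, and all wild-type signals were far above theirs. Junb fell by 1.99 ± 0.48 on the log2 scale (limma, adjusted p = 0.00507). As deposited, its signals were at least 3.59-fold lower than on the wild-type Igκ+ arrays. The log2 difference passed under all 17 alternatives in which Junb could be tested, at -4.54 to -1.48. It was -2.17 with the level adjustment (adjusted p = 0.00812). Junb too had passed the filter only through the wild-type arrays, so this steadiness is no independent support.

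Jund encodes a JUN protein that is made steadily rather than on induction. Its signals were 12296 and 13982 on the TAK1-deficient, 6505 and 8055 on the wild-type Igκ+ and 7437 and 7731 on the Igλ+ arrays. The TAK1-deficient signals lay above all wild-type signals. Jund rose by 0.86 ± 0.14 on the log2 scale as deposited (limma, adjusted p = 0.00072) and by 1.88 with the level adjustment (adjusted p = 7.54e-05), but the direction turned with median centring, to -1.86 (adjusted p = 1.33e-05), and with scaling on the spiked controls, to -2.60 (adjusted p = 6.59e-07). Under these scalings the medians of all genes were -3.27 and -3.94, so Jund lay higher than they did. The dimmer Jund probe set read 229 and 244, 36.4 and 42.1, and 67.0 and 34.9 in the same order of arrays. It too did not overlap between the genotypes, and without its TAK1-deficient signals it would not have met the filter.

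Batf was low in TAK1-deficient cells. Its signals were 40.5 and 25.7 on the TAK1-deficient arrays, 581 and 419 on the wild-type Igκ+ arrays and 479.7 and 594 on the wild-type Igλ+ arrays. Both TAK1-deficient signals were under the control level, so the transcript was not measurable above background there. Batf fell by 3.39 ± 0.36 on the log2 scale (limma, adjusted p = 5.92e-05). As deposited, its signals were at least 6.43-fold lower than on the wild-type Igκ+ arrays and at least 6.96-fold lower than on the wild-type Igλ+ arrays. The log2 difference passed under all 18 alternatives, at -5.67 to -2.53, and was -2.91 with the level adjustment (adjusted p = 0.000639). Batf had passed the filter only through the wild-type arrays, so this steadiness is no independent support.

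The IRF factors that bind with BATF were measured well above the control level on every array. Irf4, needed for light chain recombination and plasma cell formation, had mean signals of 6112 ± 1066 (SD, n = 2) in wild-type Igκ+ cells against 2818 ± 651 with TAK1 deficiency. It fell by 1.12 ± 0.20 on the log2 scale (limma, adjusted p = 0.000972), and the difference was 0.04 with the level adjustment (adjusted p = 0.875). Irf8 fell by 1.65 ± 0.15 (adjusted p = 2.73e-05), from 5592 ± 273 to 1779 ± 180.2, and stood at -0.49 with the level adjustment (adjusted p = 0.02).

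Egr1, an EGR factor induced by ERK signalling, had signals of 3968 and 4403 on the TAK1-deficient, 4917 and 4077 on the wild-type Igκ+ and 5544 and 5476 on the Igλ+ arrays. The Igκ+ groups overlapped. The log2 difference of -0.10 ± 0.15 did not pass (limma, adjusted p = 0.554). It depended on the scaling in direction and in call, at 1.14 with the level adjustment (adjusted p = 0.000525), -2.80 with median centring (adjusted p = 1.26e-07) and -3.54 with scaling on the spiked controls (adjusted p = 5.01e-08). Both of the latter lay above the medians of all genes under the same scaling.

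Egr2, which takes part with Egr3 in restraining antigen receptor responses of lymphocytes, likewise showed little difference as deposited. Its first probe set read 815 and 693 on the TAK1-deficient, 845 and 603 on the wild-type Igκ+ and 896 and 647 on the wild-type Igλ+ arrays, and its second 928 and 703, 599 and 565, and 713 and 496. The first overlapped between all groups. The second overlapped between TAK1-deficient and wild-type Igλ+ arrays but not between the Igκ+ groups. Tested by itself, the second differed by 0.46 ± 0.29 and did not pass (limma, adjusted p = 0.181). The log2 difference of the first, 0.07 ± 0.28 (limma, adjusted p = 0.826), became 0.92 with the level adjustment (adjusted p = 0.0319). It was -2.56 with median centring (adjusted p = 9.14e-06) and -3.27 with scaling on the spiked controls (adjusted p = 1.18e-06). Both of the latter lay above the medians of all genes under the same scaling.

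Egr3 differed from both relatives. Its brighter probe set read 679 and 700.1 on the TAK1-deficient, 3093 and 1694 on the wild-type Igκ+ and 1985 and 3436 on the wild-type Igλ+ arrays. All wild-type signals lay above both TAK1-deficient signals. Egr3 fell by 1.71 ± 0.33 on the log2 scale (limma, adjusted p = 0.00169) but stood at -0.22 with the level adjustment and did not pass (adjusted p = 0.621). A dimmer Egr3 probe set went the other way, at 182 and 88.4 on the TAK1-deficient, 22.9 and 11.3 on the wild-type Igκ+ and 35.0 and 12.3 on the wild-type Igλ+ arrays, so the probe sets of Egr3 disagreed. The dimmer one did not reach the filter and was not tested.

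**Figure D2:**
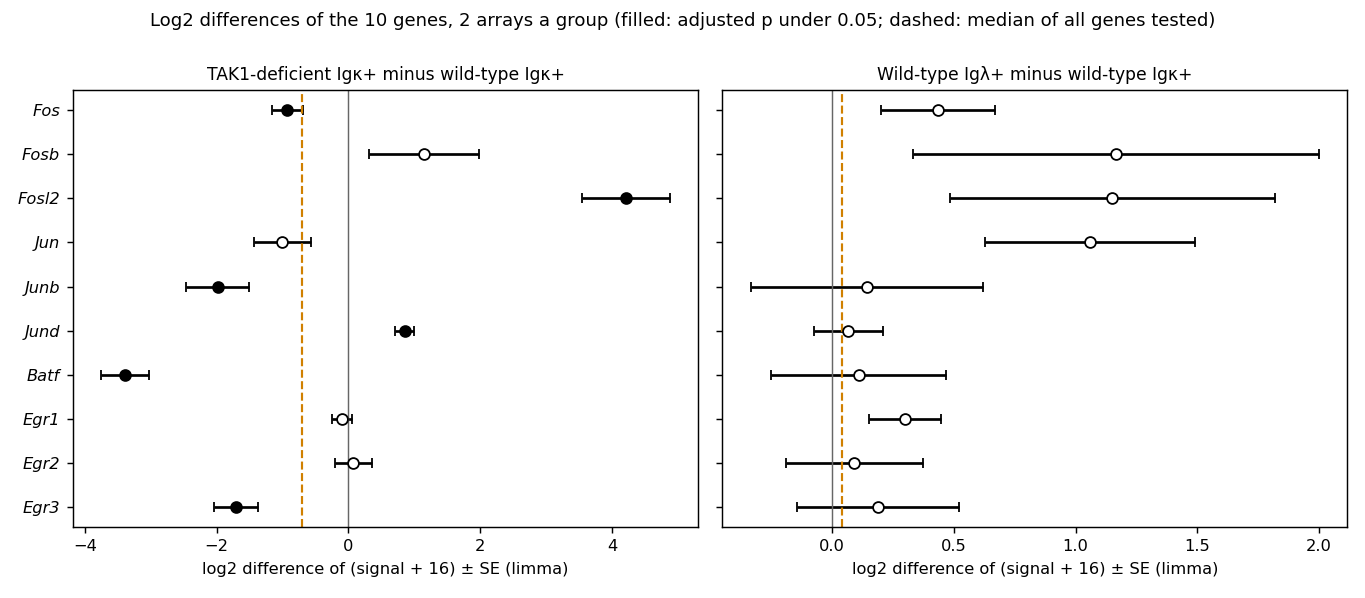
Log2 differences of the 10 genes with their standard errors from limma, TAK1-deficient minus wild-type Igκ+ and wild-type Igλ+ minus wild-type Igκ+, on the deposited scale, with filled points where the adjusted p was under 0.05 and a dashed line at the median of all genes. In the first comparison 6 genes pass, from Batf at -3.39 to Fosl2 at 4.21, and in the second 0 pass; the Fos and Jund directions of the first turn under other scalings.

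Set against genes of similar wild-type level, 4 members lay outside the range from the 10th to the 90th percentile of their class. By definition that range leaves out the top 10% and the bottom 10% of genes. Fosl2, Junb and Batf had passed the filter through a single genotype, so their place outside it is no independent support. Fosl2, at 4.21, lay above the 90th percentile of its class (3.91), and Jund, at 0.86, above that of its class (-0.05). Junb, at -1.99, and Batf, at -3.39, lay below the 10th percentiles of theirs (-1.71 and -2.19). Egr1, at -0.10, lay just under the 90th percentile of its class, and Fos, Fosb, Jun, Egr2 and Egr3 lay between the percentiles. After the level adjustment the members that passed were Fosl2, Jund, Egr1 and Egr2, higher, and Junb and Batf, lower. That is 4 of 10 higher and 2 of 10 lower, 6 of 10 in all, against 24.7%, 18% and 42.7% of all genes under the same adjustment.

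**Figure D3:**
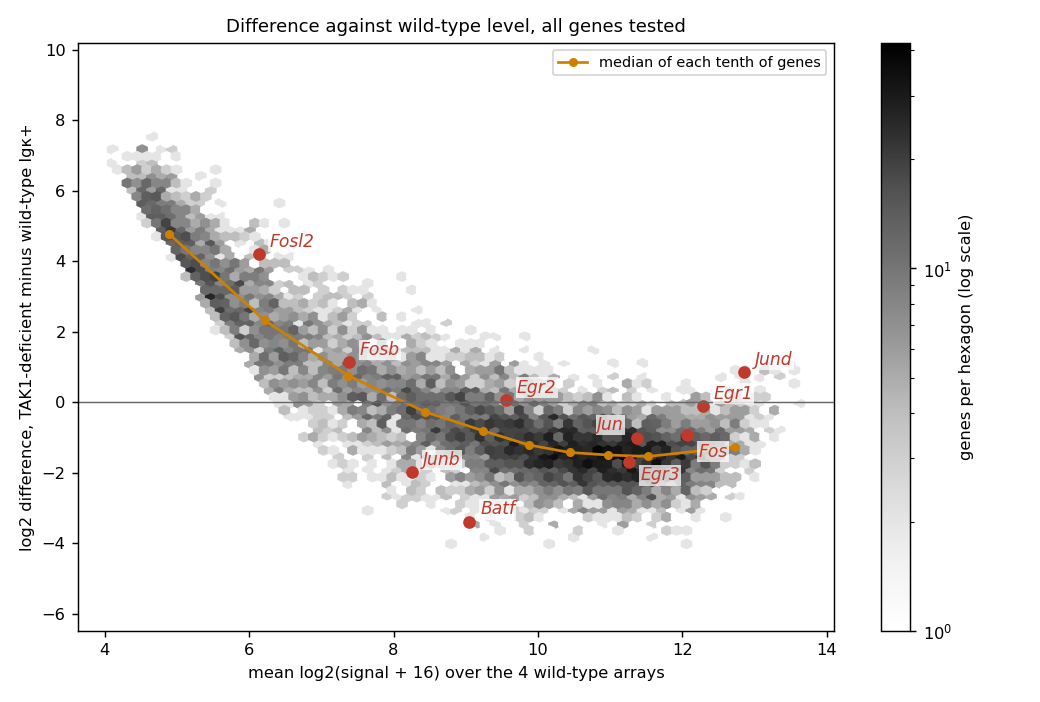
Log2 difference of TAK1-deficient minus wild-type Igκ+ cells (vertical) against the mean log2(signal + 16) of the 4 wild-type arrays (horizontal) for 11696 genes, shaded by the number of genes per hexagon, with the 10 named genes in red and the median of each level class in orange. The medians fall from 4.79 to -1.54 with rising level, but genes of the dimmest class passed the filter only through their TAK1-deficient signals. Fosl2 and Jund lie above most genes of their level while Junb and Batf lie below most. Fosl2, Junb and Batf had passed the filter through a single genotype.

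**Figure D4:**
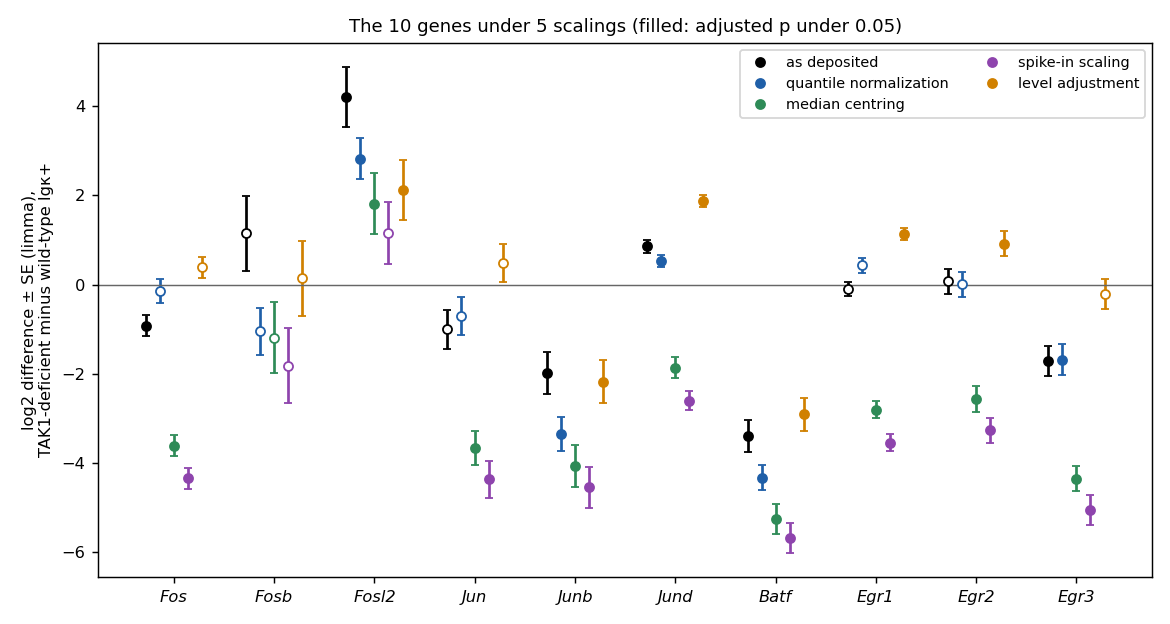
Log2 difference of TAK1-deficient minus wild-type Igκ+ cells for each of the 10 genes as deposited and under quantile normalization, median centring, scaling on the spiked controls and the level adjustment. Batf, Junb and Egr3 stay below 0 and Fosl2 stays above 0 under all 5, whereas Fos, Fosb, Jun, Jund, Egr1 and Egr2 lie on both sides of 0.

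Among other zipper proteins that pair with or oppose AP-1, 9 of the 14 listed genes were tested, and 2 were higher and 3 lower, with a median log2 difference of -0.03. Adjusted for level, 3 were higher and 0 lower. Among all genes tested, 26.1% were higher and 49.8% lower with a median of -0.70, and with the level adjustment 24.7% were higher and 18% lower. Maff, a small MAF protein without an activation domain, rose from 28.1 ± 6.59 (SD, n = 2) to 252 ± 181, by 2.43 (limma, adjusted p = 0.002), but its difference was 0.09 with the level adjustment (adjusted p = 0.89) and -0.35 when scaled on the spiked controls. Bach1, a repressor that pairs with small MAF proteins, rose by 0.75 (adjusted p = 0.00293), and by 2.23 with the level adjustment (adjusted p = 0.000106), but lay at -2.69 when scaled on the spiked controls. Bach2, its relative with a known role in B cells, fell by 1.03 (adjusted p = 0.000568), and Mafk fell by 1.27 (adjusted p = 0.00764). With the level adjustment these stood at 0.27 and -0.36, and neither passed.

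Of 10 cofactors and inducers of the EGR and Fos genes, 8 were lower and 1 higher, with a median of -1.84, against 49.8% lower and 26.1% higher of all genes and their median of -0.70. After level adjustment 3 were lower and 2 higher, against 18% and 24.7% of all genes. Nab2, a co-repressor that EGR proteins induce and that then holds them back, had signals of 108 and 19.6 on the TAK1-deficient, 520.1 and 422 on the wild-type Igκ+ and 311 and 336 on the wild-type Igλ+ arrays. All wild-type signals were higher than both TAK1-deficient ones, 1 of which was under the control level. Nab2 fell by 2.87 ± 0.55 (limma, adjusted p = 0.00155), and stood at -2.70 with the level adjustment (adjusted p = 0.00576). Its relative Nab1, chosen after its values were seen, rose by 0.69 (adjusted p = 0.0101), and by 1.78 with the level adjustment (adjusted p = 0.000348), though it lay at -2.71 when scaled on the spiked controls. Srf, which binds CArG boxes before Fos and Egr genes, fell by 2.04 (adjusted p = 8.59e-05), and its coactivators Mrtfa and Mrtfb were lower, at -2.32 and -2.01 (adjusted p = 2.42e-05 and 7.95e-05). With the level adjustment Srf and Mrtfa were at -0.82 and -0.83 and still passed, while Mrtfb was at -0.58 and did not (adjusted p = 0.0587).

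The kinases that carry signals from TAK1 and other receptors to AP-1 were lower in 6 of 8 genes tested and higher in 1, with a median of -1.20, against 49.8% lower and 26.1% higher of all genes and their median of -0.70. Once adjusted for level, 2 were lower and 1 higher, against 18% and 24.7%. Map2k1 and Map2k2, which encode the MEK kinases of the ERK pathway, were lower, at -2.30 and -3.28 (limma, adjusted p = 9.25e-06 and 0.00127). Mapk14, encoding p38α, fell by 1.65 (adjusted p = 0.000132), and Map2k4, a kinase of JNK, fell by 1.34 (adjusted p = 0.00164). With the level adjustment Map2k1 and Map2k2 stayed lower, at -0.999 and -2.20, while Mapk14 and Map2k4 stood at -0.24 and 0.01 and did not pass. The phosphatases that switch MAP kinases off were lower in 5 of 7 and higher in 0, with a median of -1.73, set against the same shares and median of all genes. After adjustment 2 were lower and 1 higher. Dusp4, Dusp16, Dusp5 and Dusp1 were lower, at -2.39, -1.95, -1.88 and -1.73 (limma, adjusted p = 0.00109, 0.000249, 0.00561 and 0.00211). Both Dusp4 signals of TAK1-deficient cells were under the control level, which puts the signals at least 3.43-fold lower as deposited. Of these 4, Dusp4, at -2.85, and Dusp16, at -0.94, were still called lower with the level adjustment (adjusted p = 0.00153 and 0.021), while Dusp5, at -0.60, and Dusp1, at -0.36, were not (adjusted p = 0.323 and 0.447).

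Genes described elsewhere as targets of AP-1 or EGR factors went both ways, with 3 higher and 4 lower of 9 tested and a median of -0.34. The shares among all genes were 26.1% and 49.8%, so these counts lay near the background. Adjusted for level, 2 were higher and 4 lower, against 24.7% and 18%. Id3, an inhibitor of E proteins induced by EGR factors, fell by 2.595 ± 0.28 (limma, adjusted p = 5.96e-05), from 2773 ± 689 (SD, n = 2) to 446 ± 115. Cd69, an early activation marker, fell by 2.51 ± 0.19 (adjusted p = 1.09e-05), from 3058 ± 501 to 521 ± 12.1. Both were also lower with the level adjustment, at -1.10 and -1.08 (adjusted p = 0.0156 and 0.0027). Ccnd1, a cyclin of the G1 phase, rose by 2.32 ± 0.36 (adjusted p = 0.000519), from 190.1 ± 46.6 to 998 ± 35.2, and by 1.74 with the level adjustment (adjusted p = 0.00762), but lay at -0.997 when scaled on the spiked controls. The remaining gene named for this list, Nab2, is given above.

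Other immediate-early genes, which cells transcribe within minutes of a stimulus as they do Fos and Egr1, also went both ways, with 7 lower and 3 higher of 13 tested and a median of -1.73. These counts too lay near the 49.8% and 26.1% of all genes, whose median was -0.70. After adjustment for level 6 were lower and 4 higher, against 18% and 24.7%. Btg2 and Zfp36, an antiproliferative gene and an RNA decay factor, were lower, at -3.27 and -3.13 (limma, adjusted p = 2.7e-05 and 6.6e-06), and at -1.80 and -1.83 with the level adjustment (adjusted p = 0.00134 and 0.000264). The nuclear receptor genes Nr4a2 and Nr4a3 rose. Nr4a2 read 941 and 924 on the TAK1-deficient arrays, compared with 9.04 to 45.8 on the other 4, a log2 difference of 4.59 ± 0.49 (adjusted p = 6.12e-05) and of 1.85 with the level adjustment (adjusted p = 0.016). Nr4a3 read 1075 and 1062 against 99.9 to 377, a difference of 2.67 ± 0.55 (adjusted p = 0.00236), which was 1.84 with the level adjustment (adjusted p = 0.0305) and -0.64 when scaled on the spiked controls.

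Markers of other cell types moved with the genotype too. The summed signal of 8 stromal and endothelial markers was 5441 and 5371 on the TAK1-deficient arrays, compared with 999.6 to 1302 on the other 4, with 8 of 8 above the control level on both of the former and 4 to 7 on the latter. Among them Pecam1 went the other way, at 522 and 381 against 685 to 1060, and was called lower (limma, adjusted p = 0.00408). The summed signal of 8 T and NK cell markers was 4194 and 4646 against 882 to 2543, with 6 and 7 of 8 above the control level against 3 to 8. Of these, Bcl11b, a T cell factor, was at 2431 and 2313 against 5.07 to 18.9. Cd3e, Cd3g and Cd8a were also higher as deposited, at 271 and 287, 441 and 279, and 329 and 567 on the TAK1-deficient arrays. On the other 4 they stood at 2.15 to 40.2, 24.8 to 35.6 and 20.8 to 46.2. Without Bcl11b the sum was 1762 and 2333 against 866 to 2538, so the genotypes overlapped. Cd4, Ncr1 and Gzma overlapped too, Gzma being at 1457 on wild-type Igκ+ replicate 2. Prf1, a gene of cytotoxic cells, was lower, at 476 and 569 against 636 to 896. The number of markers listed at 0 was 0. The part of these markers, of the Actb ratio and of the control signals in the differences of the AP-1 and EGR genes was not tested, and in bulk RNA fewer cells of a type and less RNA per cell cannot be told apart.

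The second comparison set wild-type Igλ+ against wild-type Igκ+ cells and asked how the factors differed with the light chain. It shares its wild-type Igκ+ arrays with the first. Of the 10 genes 0 passed, and of all 11696 genes 0 passed as well (limma, Benjamini-Hochberg), 0% against 0%. At an unadjusted p under 0.05, 1 member and 239 of all genes (2.04%) were counted. That member was Jun, with a log2 difference of 1.06 ± 0.43 (unadjusted p = 0.0386, adjusted p = 1). The Jun signals of 4470 and 3245 in Igλ+ cells lay above those of 3098 and 1065 in Igκ+ cells, by a narrow margin between 3245 and 3098. Without wild-type Igκ+ replicate 2 the Jun difference was 0.30, and without Igκ+ replicate 1 it was 1.82.

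The other members gave no passing difference either. The second gene without overlap between the light chain groups was Egr1, at 5544 and 5476 in Igλ+ against 4917 and 4077 in Igκ+ cells, a log2 difference of 0.30 ± 0.15 (limma, unadjusted p = 0.0756, adjusted p = 1). Absence of overlap was met by 22.7% of all genes. Fos differed by 0.43 ± 0.23, Fosb by 1.17 ± 0.83 and Fosl2 by 1.15 ± 0.67, and none of these 3 had an unadjusted p under 0.05. Fosl2 rested on a single array, since without Igλ+ replicate 1 its difference was -0.03, and Fosb was -0.16 without Igκ+ replicate 2. Batf, at 0.11 ± 0.36, Junb, at 0.14 ± 0.48, Jund, at 0.07 ± 0.14, Egr2, at 0.09 ± 0.28, and Egr3, at 0.19 ± 0.33, had differences smaller than their errors. All 10 differences were above 0 as deposited, as were 57.8% of all genes. Under median centring and spike-in scaling alike, 5 members stayed above 0, Fos, Fosb, Fosl2, Jun and Egr1, against 29.1% of all genes.

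Several members varied strongly between wild-type replicates. The log2 difference between the wild-type Igκ+ replicates was 2.65 for Fosb and 1.53 for Jun, at percentiles 99.8 and 98.7 of all genes, against a median of 0.26. Between the Igλ+ replicates it was 2.37 for Fosl2 and 1.63 for Fosb, at percentiles 98.3 and 96.5, against a median of 0.31. Jund and Egr1 were steadier, at 0.31 and 0.27 in Igκ+ cells and 0.06 and 0.02 in Igλ+ cells. Replicate 1 exceeded replicate 2 in both wild-type groups for 7 of 10 members, all but Jund, Batf and Egr3, and for 37.1% of all genes.

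Granulocyte and monocyte markers differed between the same replicates. The summed signal of 9 granulocyte markers was 5255 and 316 on the wild-type Igκ+ arrays and 37296 and 329 on the Igλ+ arrays, with 9 and 6, and 9 and 5, of them above the control level. It was 8130.5 and 8715 on the TAK1-deficient arrays, with 9 and 8 above the control level. Mpo, which encodes myeloperoxidase, was 1702 and 63.8 in Igκ+ and 7357 and 55.0 in Igλ+ cells. The summed signal of 8 monocyte and macrophage markers was 2237 and 955 in Igκ+ and 10468 and 547 in Igλ+ cells, with 8 and 7, and 8 and 6, above the control level. On Igλ+ replicate 1, where both sums were highest, the brighter Fosl2 probe set was at 221 and Junb at 488. On the other wild-type arrays they were at 29.9 to 31.2 and 190.0 to 317. The second Fosl2 probe set was not raised on Igλ+ replicate 1, at 7.64 there against 9.68 to 17.04. Erythroid markers summed to 3119.9 there and to 1049 to 1633 on the other wild-type arrays, with 5 of 6 above the control level there and 2 or 3 on the others. Without Igλ+ replicate 1 the light chain difference of Jun was 0.83 and that of Junb turned to -0.50, and 0 members were called. In the genotype comparison the differences of Fosb and Jun were 2.47 and -0.24 without wild-type Igκ+ replicate 1, and -0.18 and -1.77 without replicate 2. The part of these markers in the differences between replicates was not tested.

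The members' profiles were compared with those of all 11696 genes by Pearson's r of log2 signal over the 6 arrays, as a description. The arrays span the genotype contrast, in which 75.9% of genes passed, and no p is given. The genes most like Fos were Mapk8ip3 (r = 0.996), Rnps1 (0.996) and Inpp5a (0.995), and 3.46% of all genes exceeded 0.95. For Batf they were Tgds, Uba3 and 9330133O14Rik, with r of 0.9994 to 0.9997, and 29.7% of all genes exceeded 0.95. Adam6b (0.9996), Rhd (0.998) and Cd163 (0.998) were most like Fosl2, where 3.29% exceeded 0.95, and each was high on both TAK1-deficient arrays and next highest on wild-type Igλ+ replicate 1.

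Jun and Egr1 had rarer profiles. The genes most like Jun were Mkrn1 (r = 0.993), Atxn10 (0.991) and Atp13a2 (0.988), and 0.53% of all genes exceeded 0.95. Like Jun, these 3 read lower on wild-type Igκ+ replicate 2 than on the other wild-type arrays, for Mkrn1 1349 against 3248 to 3733. The genes most like Egr1 were Plcb3 (0.979), Ecm1 (0.974) and Dtx3 (0.967), and 0.0684% exceeded 0.95. Among members, r over the 6 arrays was 0.955 for Fos with Jun, 0.953 for Jun with Egr1, 0.955 for Batf with Egr3 and 0.204 for Fos with Fosb.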

How the data were processed

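RNA of 6 samples was hybridised to Affymetrix arrays of 45101 probe sets. The authors deposited linear signal intensities, for which the submitters' processing notes name MAS5. The version of MAS5 is not given in the sources used here. On every deposited array the mean intensity is 500 after trimming 2% of probe sets at either end. Such scaling can lift the background of a weak array, and whether it did so here was not tested. The number of arrays limits the precision.

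Of the probe sets, 34945 named a single gene in the platform annotation, 932 named several, 9160 had no listed gene and 64 were controls, of which 27 unspiked ones set the control level and 18 spiked ones the spike-in scaling. Entrez identifiers of 34741 were found in RefSeq's GRCm38.p6 table, and 0 symbols changed. Columns without a sample numbered 0.

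The intensities were converted here to log2(signal + 16), which understates changes of dim genes. A gene was represented by its probe set of highest mean log2 value, and means above the 40th percentile were kept (signal 65.2), 11696 of 18193 genes. Groups were compared with limma 3.58.1 in R 4.3.3, with a mean per group over 6 arrays, 3 residual degrees of freedom, eBayes with a trend, two-sided, and Benjamini-Hochberg adjustment over all genes at 0.05. The code was tested on simulated data. Figures used matplotlib 3.10.9 in Python 3.11.15.

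The members and lists were chosen with earlier results of these data known. All members, Map3k7 and, per list, up to 4 called genes with the largest change in the first comparison were named, and for Fos, Jun, Egr1, Fosl2 and Batf the 3 genes with the most similar profile.

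Alternatives were the scalings named in the report (the level adjustment by lowess with span 0.2), pseudocounts of 1 and 64, filtering at the 60th percentile or not at all, each probe set tested by itself, no trend in eBayes, a fit to the 4 arrays compared, a replicate block, and leaving out each array.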

Additional observations from a re-analysis of the deposited data

How the results depend on the processing

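In TAK1-deficient against wild-type Igκ+ cells, 8878 genes passed, against 14703 unfiltered, 4998 after the level adjustment and 19886 when each probe set was tested by itself. Of the called genes 34.4% were higher. That figure was 59.9% unfiltered, 13.7% under the 60th percentile filter, 24.4% after quantile normalization, 12.6% after median centring, 9.29% on the spiked controls, 57.8% after the level adjustment and 51.4% by probe set. Members called were 6 (2 higher, 4 lower). Median centring called 9 (1 and 8), the spiked controls 8 (0 and 8), the level adjustment 6 (4 and 2) and quantile normalization 5 (2 and 3). Of all 11696 genes, the same scalings called 10476, 10504, 4998 and 8892 in this order. Median centring and the spiked controls thus called the most members and the most genes. Within this pair, and between the level adjustment and quantile normalization, the scaling with more members called had fewer genes called. The cause was not tested.

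Directions turned in that comparison for Fosb after quantile normalization (-1.05), on the spiked controls (-1.81) and after median centring (-1.20), for Egr1 with quantile normalization (0.43) and the level adjustment (1.14), for Jund and Egr2 with median centring (-1.86 and -2.56) and spike-in scaling (-2.60 and -3.27), and for Fos and Jun with the level adjustment (0.38 and 0.48). Leaving out each array in turn gave -0.17 to 0.31 for Egr2, -0.234 to 0.036 for Egr1, -0.18 to 2.47 for Fosb and -1.77 to -0.24 for Jun. Batf and Junb kept direction and call under every alternative that could be run, but both had passed the filter only through the wild-type arrays. Their steadiness is thus no independent support. Junb, Fosb and Fosl2 did not reach the 60th percentile filter.

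Between the light chains, 0 genes passed except without Igλ+ replicate 1 (7, 0 of them higher) and without Igλ+ replicate 2 (68, 48 of them higher), a range of 0 to 68 over the arrays left out, and 0 members were called throughout. Directions turned with median centring for Junb (-0.046), Jund (-0.129), Batf (-0.082), Egr2 (-0.102) and Egr3 (-0.006), and with spike-in scaling for Junb (-0.039), Jund (-0.119), Batf (-0.073) and Egr2 (-0.093). Leaving out each array gave -0.087 to 0.22 for Jund, -0.16 to 2.49 for Fosb, -0.50 to 0.79 for Junb, -0.12 to 0.34 for Batf, -0.15 to 0.33 for Egr2, -0.24 to 0.62 for Egr3 and -0.033 to 2.34 for Fosl2.

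Replicate numbers were checked for pairing: deviations of same-numbered arrays from their group means correlated at 0.01, 0.03 and 0.22, so not every pair passed 0.1 and the numbers were not taken to pair the samples, though the wild-type groups did exceed it. With the replicate block, 8915 genes and 7 members were called in the first comparison, Jun being added (adjusted p = 0.0378), and 0 of each in the second. Signals under the control level, as for Batf and Junb on the TAK1-deficient arrays, give bounds and no levels.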
